A study of Mus musculus with 4 samples.

Results

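Krt75, Krt6a, Krt6b, Krt16 and Krt17 are the keratins of the companion layer, outer root sheath and stressed epidermis of the hair follicle and skin. They were chosen by name, as the rows of the expression table whose gene symbol is 1 of these 5, out of 55 keratin genes and 17721 genes in the table. Earlier results of these data were known when the choice was made. The study measured RNA by sequencing in the epidermis of back skin, from mice of the C57BL/6 strain on postnatal day 63. The 2 groups were wild type mice and mice without LDB2 (LDB2-/-), a cofactor that binds LIM-domain proteins, with 2 libraries of each genotype. The skin had been incubated in dispase, a protease used to detach the epidermis. No source used here says how the LDB2-/- allele was made, which cells it affects, or whether the libraries of a genotype came from separate animals, so p-values measure only the spread between these libraries, which may be technical.

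Keratins are the intermediate filament proteins of epithelial cells, and a filament needs a type I and a type II chain in equal amount. Krt75, Krt6a and Krt6b are type II keratins, and Krt16 and Krt17 are type I keratins known to pair with the Krt6 proteins. Krt75 marks the companion layer, a single sheet of cells between the outer and inner root sheaths, while Krt6a, Krt16 and Krt17 are made in the companion layer or outer root sheath of unwounded skin and, with Krt6b, in interfollicular epidermis after wounding or in inflamed skin.

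In LDB2-/- epidermis Krt75 rose about 40-fold above a low wild type level, and Krt6a and Krt17 each rose about 2.5-fold. Krt6b and Krt16 did not pass the test in either direction. The 3 members that rose are 3 of 5, beside 28.4% of the 12400 genes tested that were called higher in LDB2-/-, 28.8% that were called lower and 57.2% called in either direction. All 3 were at least 2-fold higher, as were 13.4% of the genes tested. A call is an adjusted p under 0.05 in edgeR's quasi-likelihood test on the read counts, with Benjamini-Hochberg adjustment over the whole set of tested genes. The median log2 fold change was 1.28 over the 5 members and -0.01 over all genes tested. With so many genes called, a call by itself sets a member little apart, and the sizes below are read against the percentile of each member among all genes tested.

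The total counts of the libraries ran from 54095522 to 68436842. Ldb2 itself had 0 and 8 counts in the wild type libraries and 0 in both LDB2-/- libraries, too few to check the genotype labels. Epidermal markers were present in every library, with the 6 basal keratinocyte markers with a sum of 23517 and 22047 CPM (counts scaled to a common library size with edgeR's TMM factors) in wild type, against 10425 and 10543 in LDB2-/-. The 6 suprabasal keratinocyte markers summed to 24639 and 20421 CPM in wild type, against 3779 and 3382 in LDB2-/-. Of these 6, 5 fell and 1 rose. The RNA came from mixed cells, and fewer cells of a type cannot be told apart from less RNA per cell. Markers of other cell types moved with the genotype. All 7 inner root sheath markers rose, from a summed 164.5 and 632.6 CPM in wild type to 110758 and 120372 in LDB2-/-, and all 11 hair shaft markers rose, from 43.9 and 287.8 to 20393 and 23087. All 5 melanocyte markers rose, from 26.3 and 46.6 to 1194 and 1362, and the 5 sebaceous gland markers fell, from 4293 and 5962 to 1029 and 913.6. The 3 tested muscle markers rose, from a summed 0.836 and 0.542 CPM in wild type to 37.4 and 30.3 in LDB2-/-. The 2 tested endothelial markers rose from 1.17 and 3.11 to 12.6 and 17.8. The 4 fibroblast markers rose from 76.3 and 43.4 to 178.7 and 236.4. Of 4 leukocyte markers 1 rose and 3 fell, with sums of 133.8 and 153.2 in wild type, against 70.4 and 87.0 in LDB2-/-. None of these lists was at 0 in either genotype, and the part of this shift in the members' differences was not tested.

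The 5 genes lie in the 2 keratin gene clusters of the mouse genome, all on the minus strand (build GRCm38, called mm10 by the submitters' processing notes). Krt75 (gene ID 109052) spans chr15:101563343-101573904 with 9 exons, Krt6b (16688) spans chr15:101676023-101680293 with 9 exons, and Krt6a (16687) spans chr15:101689928-101694305 with 9 exons. The type I genes Krt16 (16666), at chr11:100246091-100248902, and Krt17 (16667), at chr11:100256215-100261029, have 8 exons each. Values of the members are given per gene, and how exons and transcripts entered them is not given in the sources used here.

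How well reads can separate the members depends on their sequences. Krt6a and Krt6b are close copies, and their coding sequences were 97.6% identical, with 37 mismatches and an identical run of 280 bases. The 60-base window with the most mismatches, coding positions 817 to 876 counted from the A of the start codon, shows the kind of base on which a read can be given to one copy or the other. It is printed from the GENCODE M21 transcripts, with the 10 bases that differ in capitals.
Krt6a: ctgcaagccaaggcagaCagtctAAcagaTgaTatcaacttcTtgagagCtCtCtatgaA
Krt6b: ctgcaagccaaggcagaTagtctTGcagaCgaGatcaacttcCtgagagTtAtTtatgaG
Of all 75-base windows of the Krt6a transcript, 36.2% were also found in Krt6b, and of those of Krt6b, 36.9% in Krt6a. For Krt16, 28.9% of 75-base windows were shared with another gene, most of them with the pseudogene Gm11597 (22.5%) and 96 windows with Krt14. Krt75 shared no window of 50, 75 or 100 bases with any other gene, and Krt17 shared none of 75 or 100. The counts of Krt75 and Krt17 are thus the least open to mixing with a copy. Those of Krt6a, Krt6b and Krt16 are uncertain to the extent that shared reads were split or dropped, since read length and the treatment of reads with several matches are not given in the sources used here. The annotation also puts a microRNA model on the opposite strand inside Krt75, Krt6a and Krt6b, and an antisense gene over Krt6a, and whether strand was used in counting is not given either.

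Krt75, the type II keratin of the companion layer, had 6.22 and 5.97 FPKM (the authors' level per length of transcript and size of library) in the wild type libraries and 210.5 and 197.7 FPKM in the LDB2-/- libraries. The counts behind these values were 1389 and 1139 in wild type, against 37786 and 45042 in LDB2-/-. Both libraries of a genotype were close together and far from those of the other, and Krt75 moved from rank 8002 and 8385 of the table by FPKM in wild type to rank 346 and 392 in LDB2-/-. In CPM the means were 18.2 ± 0.78 (SD, n = 2) in wild type and 759.1 ± 2.94 (SD, n = 2) in LDB2-/-. The log2 fold change was 5.38 (SE 0.14, 95% interval 5.04 to 5.73), which is 41.8-fold (32.9 to 53.0), with an adjusted p of 6.49e-05 in edgeR's quasi-likelihood test. Krt75 stood at percentile 98.2 of log2 fold changes among all genes tested. The authors' deposited table gives a fold change of 41.5 for Krt75. On the authors' normalized log2 values, tried after the data were seen, the log2 difference was smaller, at 3.32.

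**Figure D1:**
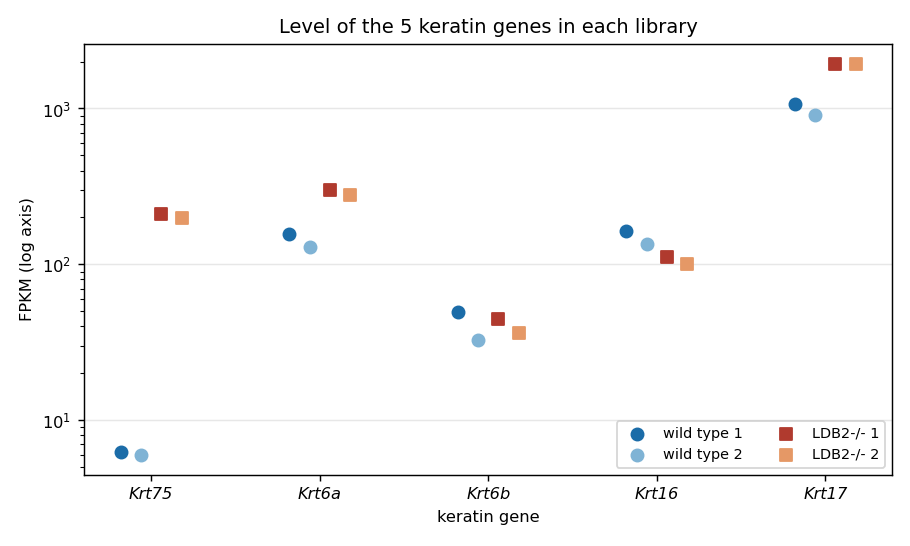
Level of each of the 5 keratin genes in each of the 4 libraries, in FPKM on a log axis, with circles for wild type and squares for LDB2-/-. Krt75 goes from about 6 to about 200 FPKM, Krt6a and Krt17 are higher in both LDB2-/- libraries, Krt6b overlaps between the genotypes, and Krt16 is lower in both LDB2-/- libraries on this scale.

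Krt75 is also the member whose upstream sequence is in the RefSeq promoter table used here, and it is shown because Krt75 changed most among the 5 genes. The 250 bases before its start, chr15:101573905-101574154 on the minus strand in GRCm38.p6, read 5' to 3' as follows, with an ATAAAA stretch in capitals that begins 32 bases before the start.
Krt75: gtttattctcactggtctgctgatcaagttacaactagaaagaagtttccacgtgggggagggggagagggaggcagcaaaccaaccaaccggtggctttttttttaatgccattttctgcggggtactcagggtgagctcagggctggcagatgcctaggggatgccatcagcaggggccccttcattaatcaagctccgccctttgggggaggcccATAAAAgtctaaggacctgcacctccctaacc
ATAAAA was searched for after the sequence was seen, and 18.5% of the 32851 promoter entries of the same length hold it on either strand. TATAAA (the TATA box), TGANTCA (bound by AP-1), TAATTA (the core bound by LIM homeodomain proteins) and CTTTGAT (bound by TCF/LEF proteins), searched on both strands, had no match in the Krt75 window. They occur in 13.6%, 7.81%, 5.29% and 3.73% of the entries.

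Krt6a, a type II keratin that pairs with Krt16 and Krt17, had 156.8 and 129.6 FPKM in wild type, against 300.3 and 279.4 FPKM in LDB2-/-. Both LDB2-/- libraries were above both wild type libraries, and the wild type libraries differed more from each other than the LDB2-/- libraries did. In CPM the means were 295.3 ± 43.8 (SD, n = 2) and 744.8 ± 7.48 (SD, n = 2). The log2 fold change was 1.33 (SE 0.15, 95% interval 0.96 to 1.71), which is 2.52-fold (1.94 to 3.28), with an adjusted p of 0.00115 in edgeR's quasi-likelihood test, at percentile 90.3 of the genes tested.

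Krt6b, its close copy, had 49.4 and 32.9 FPKM in wild type, against 44.4 and 36.1 FPKM in LDB2-/-. The genotypes overlapped, both LDB2-/- values falling between those of wild type. In CPM the values were 101.9 and 66.5 in wild type against 109.8 and 94.6 in LDB2-/-, again with an overlap. The log2 fold change was 0.28 (SE 0.22, 95% interval -0.25 to 0.81) with an adjusted p of 0.306 in edgeR's quasi-likelihood test, so a change of up to about 0.8 in log2 units is within the interval. The result rests on wild type library 1: without it, Krt6b was called higher, with a log2 fold change of 0.62 (adjusted p = 0.00983), and without wild type library 2 the value was 0.0044. Gm5478, a transcribed pseudogene close to Krt6b that shares sequence with both Krt6 genes, had a log2 fold change of -0.90 and was called lower (adjusted p = 0.00170).

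Krt16, a type I keratin of stressed epidermis, had 164.1 and 134.2 FPKM in wild type, against 112.3 and 101.1 FPKM in LDB2-/-. The LDB2-/- libraries were lower in FPKM, without overlap. In CPM, where the TMM factors enter, the values were 236.9 and 189.8 in wild type, against 194.6 and 185.6 in LDB2-/-, and the genotypes overlapped. The log2 fold change was -0.17 (SE 0.14, 95% interval -0.51 to 0.18) with an adjusted p of 0.342 in edgeR's quasi-likelihood test. The call of Krt16 changes with the scaling. With counts scaled by the library total it was called lower, at -0.48 (adjusted p = 0.0289), and with limma on log2(FPKM + 1) at -0.47 (adjusted p = 0.0170). These scalings move the median of all genes tested by -0.32 and -0.27, so relative to that median Krt16 was at about the same place in each. They also change the balance of all calls, from 3521 higher and 3576 lower with TMM to 2248 higher and 5096 lower with the library total, and 2393 higher and 5350 lower with limma on log2(FPKM + 1). Without wild type library 1 the log2 fold change of Krt16 was 0.0021.

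Krt17, a type I keratin of the outer root sheath and the most abundant of the 5 genes, had 1075 and 913.1 FPKM in wild type, against 1934 and 1942 FPKM in LDB2-/-. The LDB2-/- libraries were nearly equal and both above wild type, and Krt17 stood at rank 85 and 86 of the table by FPKM in wild type and at rank 42 and 54 in LDB2-/-. In CPM the means were 1409 ± 182.3 (SD, n = 2) and 3428 ± 149.3 (SD, n = 2). The log2 fold change was 1.28 (SE 0.18, 95% interval 0.84 to 1.73), which is 2.43-fold (1.79 to 3.31), with an adjusted p of 0.00228 in edgeR's quasi-likelihood test, at percentile 89.8 of the genes tested. Krt6a, Krt17 and Krt75 were called higher under each of the 16 other settings tried. Their lowest log2 values came from the authors' normalized values and were 0.87 for Krt6a and 0.83 for Krt17. These are smaller than the authors' own deposited fold changes, 2.50 for Krt6a and 2.42 for Krt17, which were near those from edgeR. Apart from that setting the lowest were 1.02 for Krt6a, with limma on log2(FPKM + 1), and 0.97 for Krt17, with the library total.

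**Figure D2:**
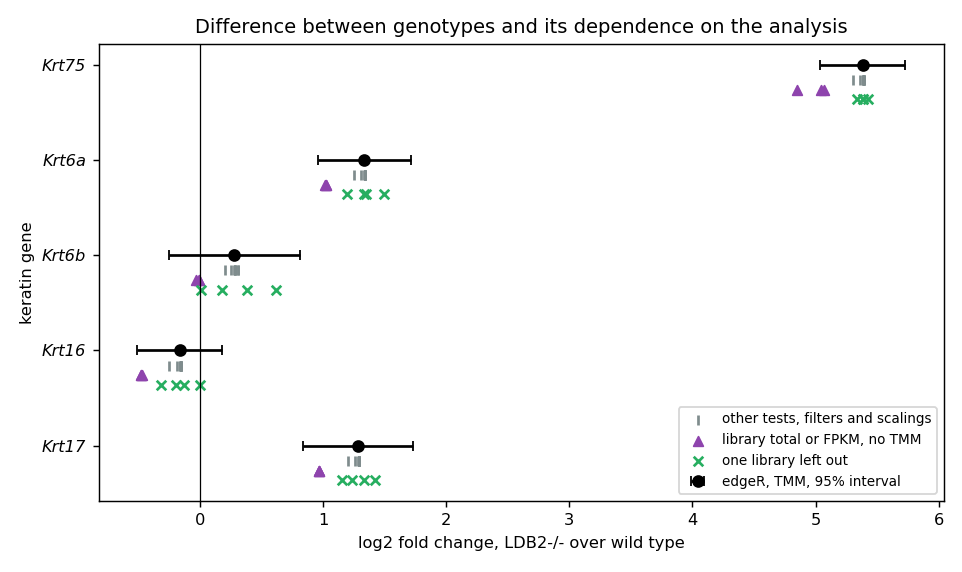
Log2 fold change of each keratin gene, LDB2-/- over wild type, with its 95% interval from edgeR (black circles), beside other tests, filters and scalings (grey marks), scalings by library total or FPKM (triangles) and fits without 1 library (crosses). Krt75, Krt6a and Krt17 stay above 0 throughout, and the values of Krt6b and Krt16 lie on both sides of 0; the authors' normalized values are not plotted.

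In TMM-scaled CPM, 3 of the 5 genes had genotypes that did not overlap, beside 82.5% of the genes tested. In FPKM it was 4 of the 5, Krt16 being added, beside 83.7% of the genes tested. These shares are near the background, so the lack of overlap is no result about the members.

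By level, the order of the genes changed. In wild type it ran, in FPKM, from Krt17 to Krt16 and Krt6a, then Krt6b, then Krt75, and the ranges of Krt16 and Krt6a overlapped. In LDB2-/- it ran from Krt17 to Krt6a, Krt75, Krt16 and Krt6b, and no neighbours in that order overlapped. Summed, the 5 genes had 1451 and 1216 FPKM in wild type, against 2601 and 2556 in LDB2-/-. Krt17 made up 74.1% and 75.1% of that sum in wild type, against 74.3% and 76.0% in LDB2-/-, so its share barely moved. The share of Krt75 went from 0.428% and 0.491% to 8.09% and 7.73%. The share of Krt16 went the other way, from 11.3% and 11.04% to 4.32% and 3.95%.

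Ratios of 2 genes within a library do not depend on how libraries are scaled. The ratio of Krt6a to Krt17 was 0.146 and 0.142 in wild type, against 0.155 and 0.144 in LDB2-/-. The genotypes overlapped, with a log2 difference of 0.05 that was smaller than the gap of 0.11 between the LDB2-/- libraries. The ratio of Krt6a to Krt16, its other known partner, was near parity in wild type, at 0.956 and 0.966, and 2.67 and 2.77 in LDB2-/-, a log2 difference of 1.50. The ratio of Krt17 to Krt16 went from 6.55 and 6.80 to 17.2 and 19.2. The ratio of Krt6a to its copy Krt6b went from 3.17 and 3.94 to 6.77 and 7.75, a log2 difference of 1.03. Reads shared between the copies enter this ratio, and their part was not tested.

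Krt75 differed from both genes it was set against. Its ratio to Krt17 was 0.00579 and 0.00654 in wild type, against 0.109 and 0.102 in LDB2-/-, and its ratio to Krt6a went from 0.0397 and 0.0461 to 0.701 and 0.707. The summed type II members reached 0.171 and 0.161 of the summed type I members in wild type, against 0.271 and 0.251 in LDB2-/-. In both genotypes the type I sum, which is mostly Krt17, was several times the type II sum. Among the 22 within-library ratios and sums compared, the exact two-sided permutation test gave p = 0.3333 for every one whose genotypes did not overlap (0.349 after Benjamini-Hochberg adjustment). That is the smallest p that 2 against 2 libraries allow, so no ratio could pass a threshold, and p was 0.667 for Krt6a to Krt17.

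**Figure D3:**
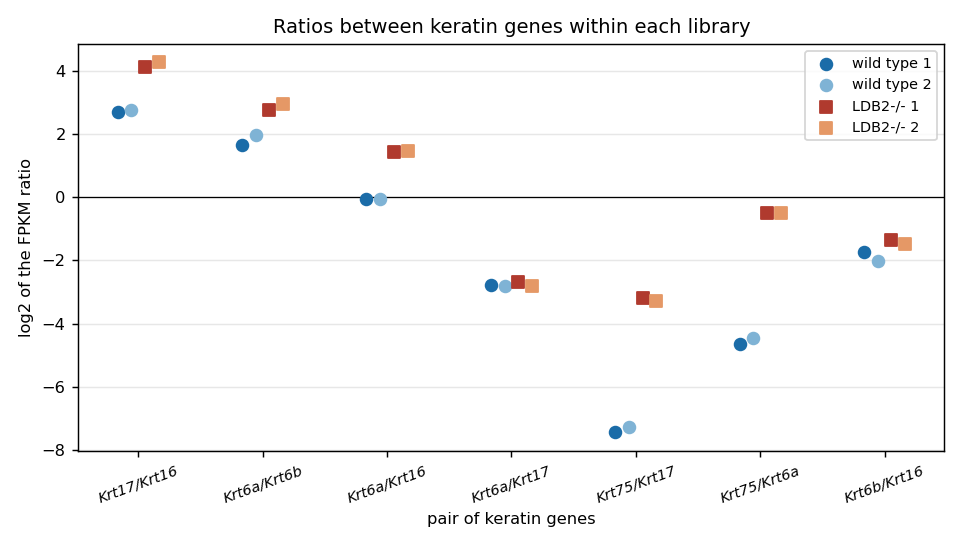
Log2 ratio of FPKM for 7 pairs of the keratin genes within each library, with circles for wild type and squares for LDB2-/-. The Krt6a to Krt17 ratio is at the same height in all 4 libraries, Krt6a to Krt16 goes from about 0 to about 1.4, and the 2 ratios with Krt75 as numerator differ most.

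The basal keratins Krt5 and Krt14 fell, while 3 of the 5 genes rose and 2 did not pass the test. Krt5, the type II keratin of basal cells, was called lower, at a log2 fold change of -1.05 (adjusted p = 0.00565), and so was its partner Krt14, at -0.90 (adjusted p = 0.00920), in edgeR's quasi-likelihood test. The sum of the 5 genes was 0.126 and 0.115 of the sum of Krt5 and Krt14 in wild type, against 0.567 and 0.579 in LDB2-/-. Against Krt14, Krt16 too was at a higher ratio, 0.0289 and 0.0263 in wild type, against 0.0479 and 0.0444 in LDB2-/-. The ratio of Krt17 to Krt14 went from 0.189 and 0.179 to 0.824 and 0.854. Both Krt5 and Krt14 are made in basal epidermis and outer root sheath, so these ratios mix the 2 sites.

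Within the whole keratin pool the summed share of the 5 genes stayed nearly the same while the classes around them changed. Together the 5 genes made up 4.84% and 4.45% of all keratin FPKM in wild type, against 4.43% and 4.03% in LDB2-/-. By read counts the summed shares were 4.11% and 3.77% against 4.31% and 3.91%, so the direction of the small difference depends on the unit. Singly, Krt75 went from 0.0207% and 0.0218% of keratin FPKM to 0.359% and 0.312%. Krt16 went from 0.547% and 0.491% to 0.191% and 0.159%. Suprabasal epidermal keratins, such as Krt1 and Krt10, went from 44.8% and 44.1% to 2.50% and 1.94%. Inner root sheath keratins went from 0.207% and 0.886% to 63.4% and 65.8%, and hair shaft keratins from 0.0960% and 0.767% to 19.6% and 19.2%. All 8 inner root sheath keratins and all 16 hair shaft keratins were called higher, with median log2 fold changes of 8.30 and 6.89. The hair shaft calls depended on the fit, as edgeR's robust fit called only part of the hair shaft markers higher. All 3 basal and 4 tested suprabasal keratins were called lower, with medians of -1.05 and -3.01. The 4 tested simple epithelial keratins, a class low in every library, were also called higher, with a median of 4.35. Krt75 at 5.38 lay between that median and the hair shaft median of 6.89. The other 4 members, from -0.17 to 1.33, lay between the medians of these classes that rose and those that fell.

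**Figure D4:**
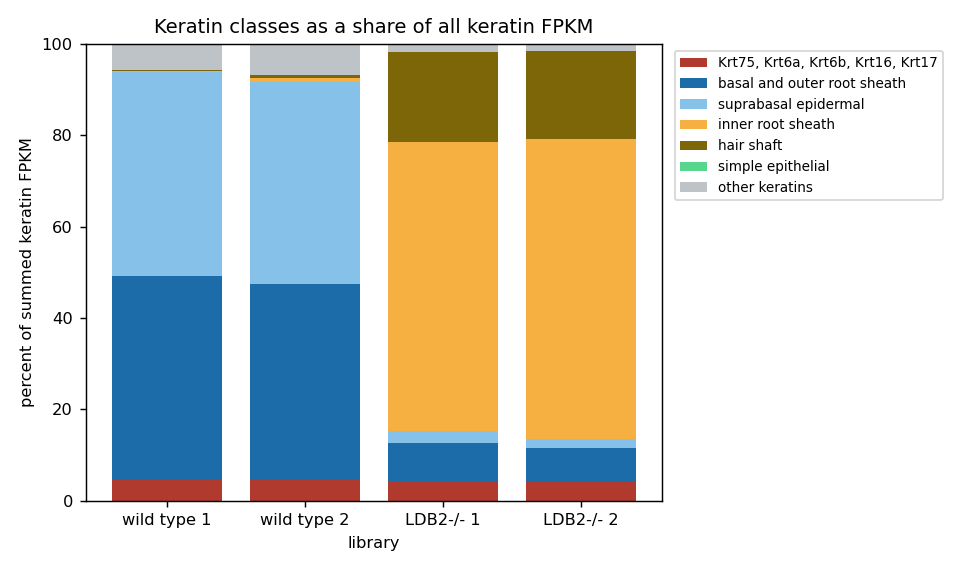
Share of each keratin class in the summed FPKM of all keratin genes, in percent, for each of the 4 libraries as stacked bars. The 5 keratin genes (red, at the base) stay between 4.03% and 4.84%, while inner root sheath and hair shaft keratins take up most of the pool in LDB2-/-.

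The wild type libraries differed from each other in inner root sheath and hair shaft keratins, and the members did not share that difference. In wild type library 2, CPM of the 8 inner root sheath keratins was a median of 4.02 times that in library 1, and all 8 were higher in library 2. Among the 14 hair shaft keratins with a count in library 1 the median ratio was 9.09, and 12 were higher. The members had ratios of library 2 to library 1 from 0.653 for Krt6b to 0.941 for Krt75, with none higher in library 2, while the median of all genes tested was 0.998 and the middle range 0.890 to 1.14. The same held for other keratin classes, with ratios of 0.654 to 0.921 for the 3 basal keratins and 0.823 to 0.997 for the 4 tested suprabasal keratins, none higher in library 2. Krt75 was at nearly the same level in the 2 wild type libraries, which differed several-fold in inner root sheath and hair shaft keratins. In both, these keratins were far below LDB2-/-, with inner root sheath keratins summing to 62.2 and 242.1 FPKM, against 37228 and 41701. Whether Krt75 varies with these keratins was not tested.

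Along the chromosomes, the members sat between genes with very different changes. The nearest tested keratin to Krt75, Krt90, with its centre 10.97 kb from that of Krt75, rose by 4.88 on the log2 scale (SE 0.67), and Krt82, a hair shaft keratin on the same side, by 5.19 (SE 1.10). On the other side, 109.5 kb away, came Krt6b at 0.28 and then Krt6a at 1.33, followed by Krt5 at -1.05 and the inner root sheath keratin Krt71 at 8.35. On chromosome 11, Krt16 and Krt17 had centres 11.1 kb apart, with log2 fold changes of -0.17 and 1.28, and Krt14, 53.3 kb from Krt17, had -0.90. Neighbours in the clusters therefore differed in direction over short distances.

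**Figure D5:**
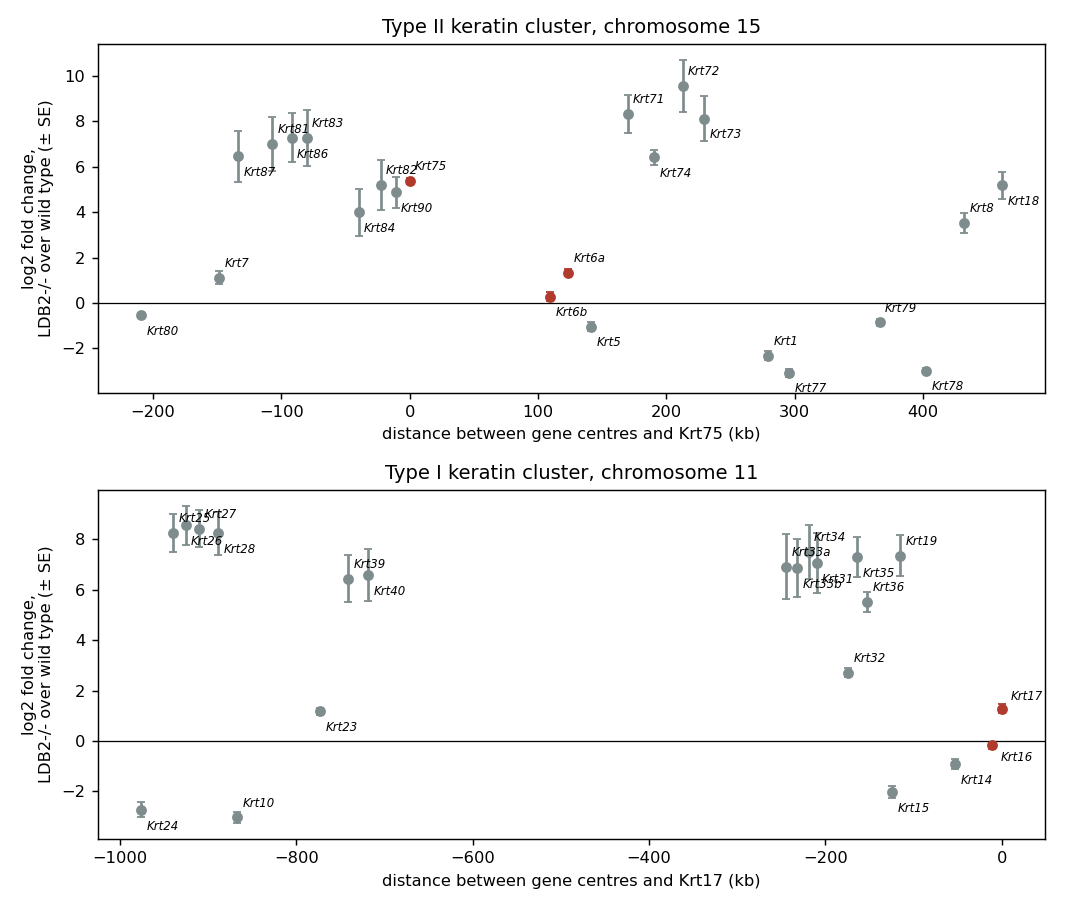
Log2 fold change (LDB2-/- over wild type, bars ± SE from edgeR) of tested keratin genes with a position in the reference table, by distance in kb between gene centres from Krt75 (upper panel) or Krt17 (lower panel), with the 5 genes in red. Krt75 lies at the edge of a run of hair shaft keratins that rose, Krt6a and Krt6b lie beside Krt5, which fell, and Krt16 and Krt17 lie beside Krt14, which fell.

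Other genes of the outer root sheath did not move as a unit. Of 12 listed genes, all tested, 6 rose, 3 fell and 3 did not pass the test, with a median log2 fold change of 0.55. For comparison, 28.4% of all genes tested were called higher and 28.8% lower. Fgf5, a growth factor that ends hair growth, rose by 6.42, from 16 and 11 counts in wild type to 719 and 1135 in LDB2-/-. Pthlh, a signalling peptide, rose by 3.04 and Tcf7l1, a transcription factor of follicle stem cells, by 2.01. Lhx2, a LIM homeodomain factor of the follicle, rose by 1.07, with 16.3 and 12.4 FPKM in wild type, against 25.4 and 23.2 in LDB2-/-. The 3 that fell were Krt5, Krt14 and Krt15, the keratin of bulge and basal cells, which fell by 2.01.

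Among 25 genes known or proposed to regulate the stress keratins, all tested, 7 rose, 12 fell and 6 did not pass, with a median of -0.47. Beside these counts, 28.4% of all genes tested were called higher and 28.8% lower. Tgfa, a ligand of the EGF receptor, rose by 2.54 on the log2 scale, while another ligand, Btc, fell by 4.96. Fos, a component of AP-1, fell by 2.86, from 328.2 and 328.8 FPKM to 38.4 and 34.1. Stat3 fell by 1.50, and Nfe2l2, the NRF2 gene, whose product is known to act on Krt6a, Krt16 and Krt17, fell by 0.69. Lef1, a mediator of Wnt signalling that is abundant in hair-forming cells, rose by 6.02, and the Hedgehog effectors Gli1 and Gli2 rose by 2.38 and 2.1. The sizes of Lef1 and Gli1 depend on the wild type library, with 68 and 220 counts of Lef1 and 414 and 800 of Gli1 in wild type libraries 1 and 2. Lef1 was at 5.35 without wild type library 1 and at 7.24 without library 2, and Gli1 was at 3.06 without library 2, each still called higher. Btc was at -5.55 without LDB2-/- library 2. Members of the list moved both ways beside a rise of Krt6a and Krt17, and inner root sheath and hair shaft markers moved with them, whose part in these values was not tested.

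Genes that accompany these keratins in wounded or inflamed epidermis were split. Of 24 listed, 23 were in the table and 18 were tested, of which 8 rose, 8 fell and 2 did not pass, with a median of -0.25. The background was 28.4% of all genes tested called higher and 28.8% called lower. Among those that rose were the cornified envelope genes Sprr2h, by 4.43, and Sprr1a, by 3.80, the latter from 300.3 and 248.1 FPKM to 2870 and 3231. Among those that fell were the cytokine Il1f6, at a log2 fold change of -4.12, and the chemokine Cxcl1, at -4.59. Cxcl1 had 342 and 211 counts in wild type, then 17 in LDB2-/- library 1 and 0 in library 2. Its log2 fold change was -3.52 without LDB2-/- library 2, no fold is given without library 1, and it was not called by the DESeq2 Wald test (adjusted p = 0.0867). Another chemokine, Ccl20, had 279 and 82 counts in wild type and 0 in both LDB2-/- libraries, where 3 counts would be 0.0555 and 0.0438 CPM.

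Proteins that tie keratin filaments to junctions or bind keratins moved in both directions. Of 10 listed genes, 2 rose, 4 fell and 4 did not pass, with a median of -0.05. Calls in either direction made up 57.2% of all genes tested, so a split of this kind is no result about the list. Dst, the hemidesmosomal linker, fell by 2.12 on the log2 scale and the cytolinker Eppk1, or epiplakin, fell by 2.06. Sfn, the 14-3-3 sigma gene whose product binds Krt17, rose by 1.44, from 1487 and 1215 CPM to 3231 and 4086. Evpl, or envoplakin, of desmosomes and the cornified envelope, rose by 1.39.

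Of 16 proliferation genes, 7 rose, none fell and 9 did not pass, with a median of 0.38. In the whole set tested, 28.4% of genes were called higher and 28.8% lower. The largest values were 0.73 for Plk1, 0.67 for Mcm5, 0.66 for Aurkb and 0.53 for Birc5, and Mki67 was at 0.48 (adjusted p = 0.0141 in edgeR's quasi-likelihood test). Other scalings changed these calls. With counts scaled by the library total 1 gene was called higher and 1 lower, and with limma on log2(FPKM + 1) 1 was called higher and 3 lower. Krt75, Krt6a and Krt17 kept their calls under both.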

How the data were processed

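RNA was sequenced from 4 libraries, 2 wild type and 2 LDB2-/-, in replicates numbered 1 and 2. Per the submitters' processing notes the tools included StringTie 1.3.4d, HISAT2 2.1.0 and bcl2fastq 1.8.4, with build mm10. Their settings are not given in the sources used here. The authors deposited read counts per gene, not normalized, and FPKM per the file headers. They also deposited log2 values normalized between libraries by a method the headers do not name, a signed fold change treated as a score, and p-values with and without Benjamini-Hochberg adjustment.

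Genes with at least 1 FPKM in at least 2 libraries were tested with edgeR 4.0.16 (R 4.3.3), the quasi-likelihood test with TMM scaling, two-sided, threshold 0.05, common coefficient of variation 0.194. The TMM scaling factors came to 1.105 and 1.128 in wild type, against 0.920 and 0.872 in LDB2-/-. The code was tested on simulated data. The alternatives were limma 3.58.1, with pseudocounts of 1 and 0.1 on FPKM, DESeq2 1.42.0, other scalings and filters, a replicate block and each library left out. Coding identity and shared windows came from GENCODE M21 transcripts, compared with all other transcripts of that release, and coordinates and the promoter from RefSeq GRCm38.p6. Only 1 of the 5 genes had a promoter entry.

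Named genes were the 5 keratins, the 4 genes of each list with the largest absolute change, the 3 genes nearest in pattern to each keratin, and Krt5, Krt14, Lhx2, Gli1, Gli2, Nfe2l2, Stat3, Sprr1a, Mki67, Cebpb, Gm5478 and keratins beside the members, chosen after their values were seen. The members and lists were chosen with earlier results of these data known.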

Additional observations from a re-analysis of the deposited data

How the results depend on the processing

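Krt75, Krt6a and Krt17 were called higher under all 16 other settings, with log2 fold changes of 3.32 to 5.43, 0.87 to 1.49 and 0.83 to 1.42. The low ends of these ranges came from the authors' normalized values, and the next lowest were 4.85, 1.02 and 0.97. Leaving out each library in turn gave 5.34 to 5.43, 1.19 to 1.49 and 1.16 to 1.42. Krt6b was at -0.032 with the library total alone and at -0.012 with limma on log2(FPKM + 1) and on log2(FPKM + 0.1), and at 0.0044 to 0.62 with each library left out. Krt16 was called lower with the library total (-0.48), limma on log2(FPKM + 1) (-0.47) and on log2(FPKM + 0.1) (-0.48), and was at -0.32 to 0.0021 with each library left out. The members' share of keratin FPKM was lower by 0.41 percentage points in LDB2-/- and their share of keratin counts higher by 0.174. Cebpb was at 0.074 without LDB2-/- library 2 and at -5.91 without library 1.

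Calls over all genes ran from 5101 to 7743, but the number of genes tested differed. The 5101 were of 8567 tested with a mean FPKM of 5 or more. The 7743 were of 12400 tested, with limma on log2(FPKM + 1). With no filter 7229 of 17721 were called. Same-numbered libraries did not deviate together (correlation -0.198), and no label pairs them. With the replicate block 6092 genes were called, the values were 5.38 for Krt75, 1.34 for Krt6a, 0.31 for Krt6b, -0.16 for Krt16 and 1.29 for Krt17, with no call of a member changed, and 1 outer root sheath gene was called lower in place of 3, Krt5 and Krt14 being lost. The crossed block, added after the data were seen, called 7269 genes.

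With a mean FPKM of 5 or more, 5 wound genes were higher and 4 lower and 1 muscle marker higher. This filter left Sprr2d, Il1b, Plaur, Il1a, Cxcl1, Defb14, Ccl20, Ckm and Tnnt3 untested, all called in the main fit. With the crossed block 5 wound genes were lower. Proliferation genes called higher numbered 1 with the library total and both limma fits on FPKM and 4 to 7 with a library left out, and those called lower 1 with the library total and 3 with limma. The robust fit called 3 of 11 hair shaft markers higher, and the library total left 0 suprabasal markers higher. The cause of the differences under settings other than that filter was not tested.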

Other observations

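The genes nearest to each keratin in pattern were found among 8301 genes by Euclidean distance over the 4 libraries in row-centred log2 CPM. With 2 libraries a genotype, many genes share a pattern, so nearness says little, and near genes need not have the same fold change. Nearest to Krt75 were Cybrd1, a ferric reductase (distance 0.180), Nkd2, an antagonist of Wnt signalling (0.234), and Foxe1, a forkhead factor of hair follicles (0.239). Their log2 fold changes were 5.80, 5.25 and 6.44, beside 5.38 for Krt75. Foxe1 was low in wild type, at 0.310 and 0.371 CPM. Nearest to Krt6a were Dnase2a (0.0612), Nectin4, an adhesion molecule of epithelia (0.0621), and Prdx3 (0.0963). Nearest to Krt17 were Bzw2 (0.0438), Pop5 (0.0457) and Dlgap4 (0.0486), to Krt16 Lamtor5 (0.0333), Wbp5 (0.0463) and Ufsp1 (0.0493), and to Krt6b Pip5k1a (0.0823), Sepp1 (0.0908) and Cdkn2b (0.122).

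Cebpb, a transcription factor of differentiating keratinocytes among the listed regulators, stood apart in LDB2-/- library 2. It had 265.9 and 258.2 CPM in wild type, 275.9 in LDB2-/- library 1 and 4.32 in LDB2-/- library 2. Its log2 fold change was -0.90, with an adjusted p of 0.609 in edgeR's quasi-likelihood test. The 5 keratins had ratios of LDB2-/- library 2 to library 1 from 0.861 to 1.06, with no such gap.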
